A study of Homo sapiens with 12 samples.

Results

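NF-κB is a family of transcription factors that work as pairs of 5 related subunits, encoded by NFKB1, NFKB2, RELA, RELB and REL. In resting cells the pairs are held in the cytoplasm by inhibitor of κB (IκB) proteins, and kinase complexes release them after signals such as TNF-α or interleukin-1. Many genes that NF-κB switches on encode proteins that end its own activity, among them NFKBIA and TNFAIP3, and NF-κB activity is a well known feature of pancreatic cancer cells. The genes described here are the 5 subunits, the feedback inhibitors NFKBIA and TNFAIP3, and BIRC3, TRAF1 and TNFAIP2, which are known NF-κB targets. They were chosen by symbol, and 9 of the 10 listed genes were found among 22411 genes measured, each on 1 probe set. Earlier results of these data were known when the genes and the further lists below were chosen. Their counts and medians beside those of all genes are therefore descriptions. BIRC3 had no probe set with a single symbol and was not analysed here.

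RNA was measured on 12 arrays from SW1990 and PANC-1, established human pancreatic ductal adenocarcinoma lines, in 4 groups of 3 arrays. SW1990 cells labelled GLI1, arrays LIP, LIP-1 and LIP-2, are described as given a GLI1 plasmid in a lipid reagent, and those labelled control were arrays a, b and c. PANC-1 cells labelled GLI1 were again arrays LIP, LIP-1 and LIP-2, and those labelled control were arrays S10, S11 and S8. By the labels the control cells of both lines received an empty plasmid in the same way, and all cells were grown in the same medium. The sources used here give neither the promoter of the plasmid nor the time from transfection to harvest. No label ties the arrays to separate cultures, so the p-values measure the spread between these arrays, which may be technical. The RNA is that of whole cultures, in which fewer cells using a gene and less RNA per cell cannot be told apart.

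GLI1, the Hedgehog transcription factor that was transfected, went against the labels. Its normalized log2 values were 7.00, 6.90 and 6.77 in the SW1990 arrays labelled GLI1, against 11.82, 11.84 and 11.76 in those labelled control. In PANC-1 it lay between 7.76 and 8.04 in the arrays labelled GLI1, against 11.50, 11.54 and 11.46 in those labelled control. Each label effect below is the level under the GLI1 label minus that under the control label and says nothing of which cells held more GLI1 plasmid. The epithelial keratin gene KRT18 lay between 11.98 and 12.48 in the group means, while of 5 leukocyte markers PTPRC lay between 3.42 and 3.46, LYZ between 3.66 and 3.72, CD3E between 5.97 and 6.16, CD14 between 6.17 and 6.80 and ITGAM between 6.34 and 6.89. The median of these 5 per array was 6.03 to 6.15 in the SW1990 arrays labelled GLI1, 5.93 to 6.04 in the SW1990 control arrays, 5.99 to 6.28 in the PANC-1 arrays labelled GLI1 and 6.04 to 6.27 in the PANC-1 control arrays, and the part of such markers in the results was not tested. The epithelial adhesion gene EPCAM averaged 10.80 in the SW1990 arrays labelled GLI1 and 10.85 in the SW1990 control arrays, but 6.99 in the PANC-1 arrays labelled GLI1 and 6.89 in the PANC-1 control arrays. One PANC-1 control array, S8, stood apart from S10 and S11 (Pearson correlation 0.987 and 0.988 across all genes, against 0.994 or more for every other pair within a group). The median of 28 interferon-stimulated genes was 9.31 in S8, against 7.05 in S10 and 6.52 in S11, so the calls of the NF-κB genes are given without it too.

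TNFAIP3 and 3 of the 5 subunits fell under the GLI1 label in both lines, and the other subunits fell in PANC-1. TNFAIP3, whose product A20 edits ubiquitin chains and shuts off the kinase step, moved furthest of the 9 genes, 2.62-fold lower in the SW1990 arrays labelled GLI1 and 3.90-fold lower in the PANC-1 arrays labelled GLI1 than in the control arrays of the same line. NFKB2, RELB and REL fell in both lines, by between 1.38- and 1.55-fold. Counted over the list, 4 of 9 genes fell in SW1990 and 7 of 9 in PANC-1, and none rose. A gene was called here at an adjusted p under 0.05 (limma, Benjamini-Hochberg over all genes), which 18.9% of all genes reached in SW1990 and 9.64% in PANC-1. Lower calls alone made up 9.62% of all genes in SW1990 and 5.25% in PANC-1. The 4 genes that fell in both lines compare with 2.91% of all genes. The median log2 fold change over the 9 genes was -0.38 in SW1990 and -0.49 in PANC-1, against 0.01 and 0.00 over all genes. Most PANC-1 calls depended on single arrays. With the PANC-1 arrays fitted alone TNFAIP3 was the only one of the 9 genes called (limma adjusted p = 0.0478), where 0.384% of all genes were.

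**Figure D1:**
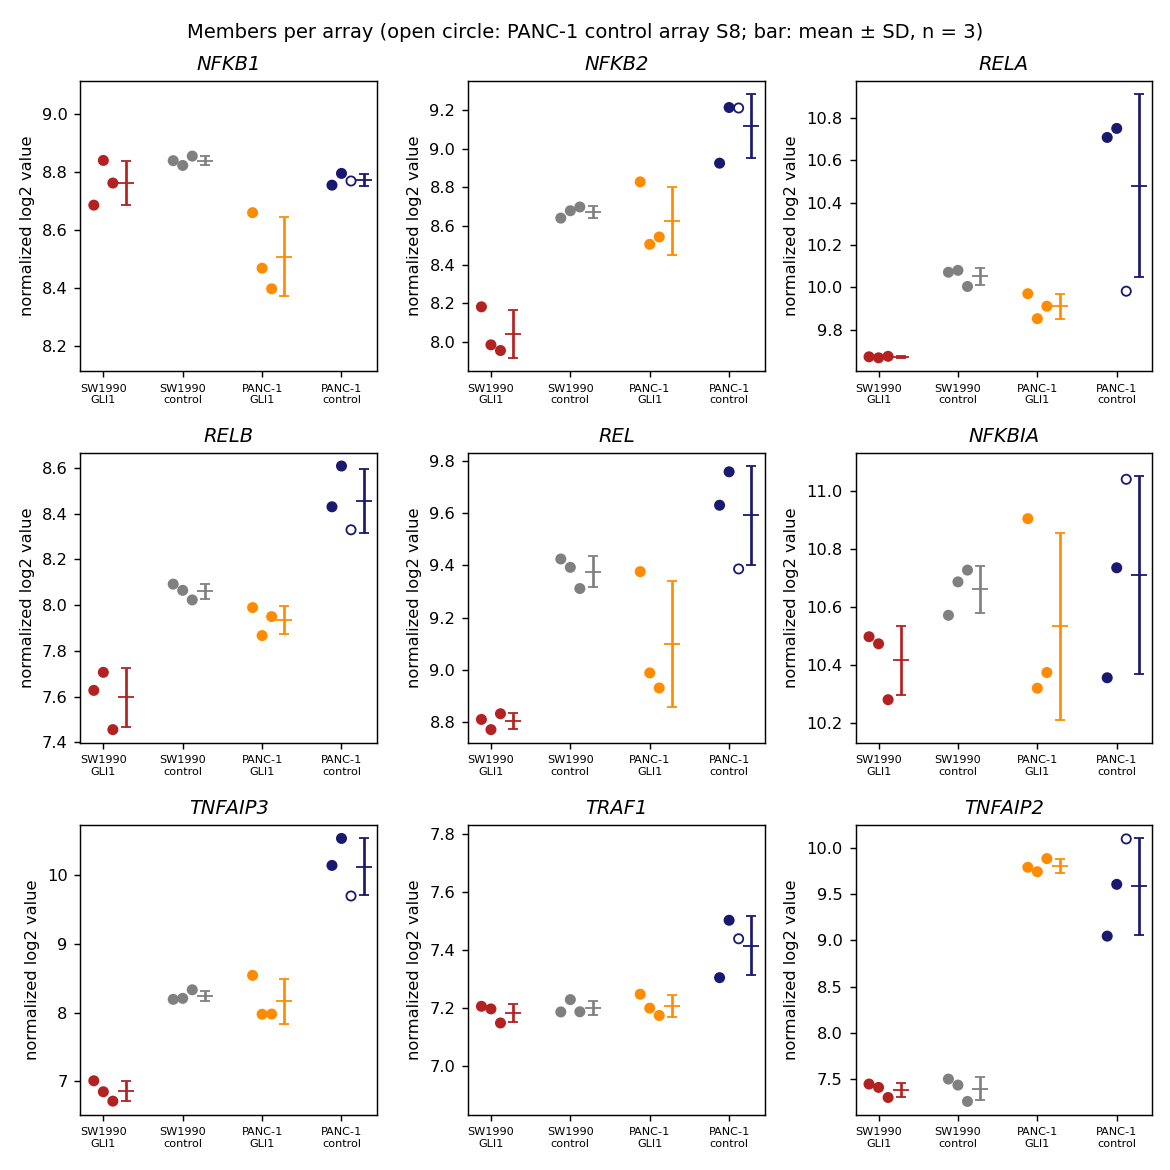
Normalized log2 value (vertical axis, a scale of its own for each gene) of 9 NF-κB genes on each of 12 arrays, in 4 groups of 3 with the mean and SD beside the points. The arrays labelled GLI1 lie below the arrays labelled control for TNFAIP3, NFKB2, RELB and REL in both lines, and the open circle is the PANC-1 control array S8.

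TNFAIP3 was also the gene with the widest range of values. In SW1990 its log2 values were 7.01, 6.85 and 6.71 in the arrays labelled GLI1, against 8.19, 8.21 and 8.33 in the control arrays. The log2 fold change was -1.39 (standard error 0.20, 95% interval -1.83 to -0.96, limma adjusted p = 0.000741). PANC-1 gave 8.54, 7.98 and 7.98 in the arrays labelled GLI1, against 10.15, 10.54 and 9.70 in the control arrays S10, S11 and S8. Here the log2 fold change was -1.96 (standard error 0.20, limma adjusted p = 0.00068). No array labelled GLI1 reached the level of a control array of its own line. The highest PANC-1 array labelled GLI1 was LIP and the lowest PANC-1 control array was S8, and without S8 the log2 fold change was -2.18 (limma adjusted p = 1.98e-05). By group mean the order was SW1990 labelled GLI1 at 6.86 ± 0.15, PANC-1 labelled GLI1 at 8.17 ± 0.33, SW1990 control at 8.25 ± 0.08 and PANC-1 control at 10.13 ± 0.42 (SD, n = 3 each). The PANC-1 arrays labelled GLI1 and the SW1990 control arrays overlapped, and no other neighbours in that order did.

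NFKB2 encodes p100, which is both an inhibitor and the precursor of the p52 subunit. It read 8.18, 7.98 and 7.96 in the SW1990 arrays labelled GLI1, against 8.64, 8.68 and 8.70 in the control arrays, a log2 fold change of -0.63 ± 0.10 (standard error; limma adjusted p = 0.00164). In PANC-1 it read 8.83, 8.50 and 8.54 in the arrays labelled GLI1, against 8.92, 9.21 and 9.21 in the control arrays, a log2 fold change of -0.49 (limma adjusted p = 0.0157). The groups did not overlap in either line, though LIP and S10 of PANC-1 lay close to each other. RELB, the usual partner of p52 in the noncanonical pathway, had 7.63, 7.71 and 7.46 in the SW1990 arrays labelled GLI1, against 8.09, 8.06 and 8.02 in the control arrays. Its log2 fold change was -0.46 (standard error 0.08, limma adjusted p = 0.00248) in SW1990. The PANC-1 values of RELB were 7.99, 7.87 and 7.95 in the arrays labelled GLI1, against 8.43, 8.61 and 8.33 in the control arrays, a log2 fold change of -0.52 ± 0.08 (standard error; limma adjusted p = 0.00448). RELB was called again under 21 of the 24 other settings tried in PANC-1 and under 23 of 24 in SW1990, and only TNFAIP3 was called under more in PANC-1, with 23 of 24. These settings are not independent tests, here or in the like counts below. Another choice of probe set, or leaving out an array of the other line, could not move the log2 fold change of these genes.

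REL encodes c-Rel, a subunit best known from lymphocytes. Its values were 8.81, 8.77 and 8.83 in the SW1990 arrays labelled GLI1, against 9.42, 9.39 and 9.31 in the control arrays, tight groups with a clear gap (log2 fold change -0.57, standard error 0.12, limma adjusted p = 0.00573). PANC-1 had 9.38, 8.99 and 8.93 in the arrays labelled GLI1, against 9.63, 9.76 and 9.39 in the control arrays. That is a log2 fold change of -0.49 (limma adjusted p = 0.0245), but LIP and S8 differed by only 0.01 and the call was lost without S10 (limma adjusted p = 0.0943) and without S11 (limma adjusted p = 0.0952).

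RELA encodes p65, the subunit that carries most of the activating function of the canonical pair. In SW1990 it read 9.67 in each of the arrays labelled GLI1, against 10.07, 10.08 and 10.00 in the control arrays. The difference of -0.38 (95% interval -0.73 to -0.03) missed the threshold in the fit over 12 arrays (limma adjusted p = 0.127) and passed it with the SW1990 arrays alone (limma adjusted p = 0.00165) and with all arrays but S8 (limma adjusted p = 0.00027). In PANC-1 RELA had 9.97, 9.85 and 9.91 in the arrays labelled GLI1, against 10.71, 10.75 and 9.98 in the control arrays, so S8 lay with the arrays labelled GLI1 and not with the other controls. The log2 fold change was -0.57 (standard error 0.16, limma adjusted p = 0.0453) with S8 and -0.82 (limma adjusted p = 9.44e-06) without it. Without S10 it was -0.46 (limma adjusted p = 0.186) and without S11 -0.43 (limma adjusted p = 0.164), and RELA was called under 8 of the 24 other settings in PANC-1. Of the 9 genes, RELA and TNFAIP2 shifted most in PANC-1 when S8 was left out.

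NFKB1, which encodes p105 and its product p50, was the least changed subunit. SW1990 gave 8.68, 8.84 and 8.76 in the arrays labelled GLI1, against 8.84, 8.82 and 8.85 in the control arrays, with overlapping groups (log2 fold change -0.08, limma adjusted p = 0.527). In PANC-1 the values were 8.66, 8.47 and 8.40 in the arrays labelled GLI1, against 8.75, 8.79 and 8.77 in the control arrays, a log2 fold change of -0.26 ± 0.07 (standard error; limma adjusted p = 0.0349). It was called under 13 of the 24 other settings in PANC-1 and lost without S10 (limma adjusted p = 0.101) and without S11 (limma adjusted p = 0.112).

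NFKBIA encodes IκBα, the inhibitor that NF-κB itself induces within minutes to hours of a signal. It did not pass the test in either line. Each line had 1 call of NFKBIA among the 24 other settings. These were array weights in PANC-1 (limma adjusted p = 0.0379) and the methods' t-test in SW1990 (unadjusted p = 0.0421). SW1990 had 10.50, 10.47 and 10.28 in the arrays labelled GLI1, against 10.57, 10.69 and 10.73 in the control arrays, separate groups with a log2 fold change of -0.24 (95% interval -0.63 to 0.14, limma adjusted p = 0.408). In PANC-1 both groups were scattered, with 10.90, 10.32 and 10.37 in the arrays labelled GLI1, against 10.36, 10.74 and 11.04 in the control arrays (log2 fold change -0.18, 95% interval -0.56 to 0.21, limma adjusted p = 0.651). Both intervals still hold the log2 fold change of NFKB1 in PANC-1.

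TRAF1, an adaptor of the TNF receptor family, hardly varied. It lay between 7.15 and 7.25 in all arrays labelled GLI1 of both lines, and the SW1990 control arrays, at 7.19, 7.23 and 7.19, overlapped with the SW1990 arrays labelled GLI1. Only the PANC-1 control arrays were higher, at 7.30, 7.50 and 7.44, against 7.25, 7.20 and 7.17 in the PANC-1 arrays labelled GLI1, a log2 fold change of -0.21 ± 0.06 (standard error; limma adjusted p = 0.0431) that was called under 8 of the 24 other settings. TNFAIP2, a cytoplasmic protein first found as a TNF-induced gene, did not follow the subunits. It read 7.44, 7.41 and 7.30 in the SW1990 arrays labelled GLI1, against 7.50, 7.43 and 7.25 in the control arrays (log2 fold change -0.01, 95% interval -0.44 to 0.42, limma adjusted p = 0.981). In PANC-1 it had 9.79, 9.75 and 9.89 in the arrays labelled GLI1, against 9.05, 9.61 and 10.10 in the control arrays, where S8 was the highest (log2 fold change 0.22, limma adjusted p = 0.594). Without S8, TNFAIP2 was higher in the arrays labelled GLI1 (log2 fold change 0.48, limma adjusted p = 0.025), and without S10 its log2 fold change was -0.05 (limma adjusted p = 0.951).

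**Figure D2:**
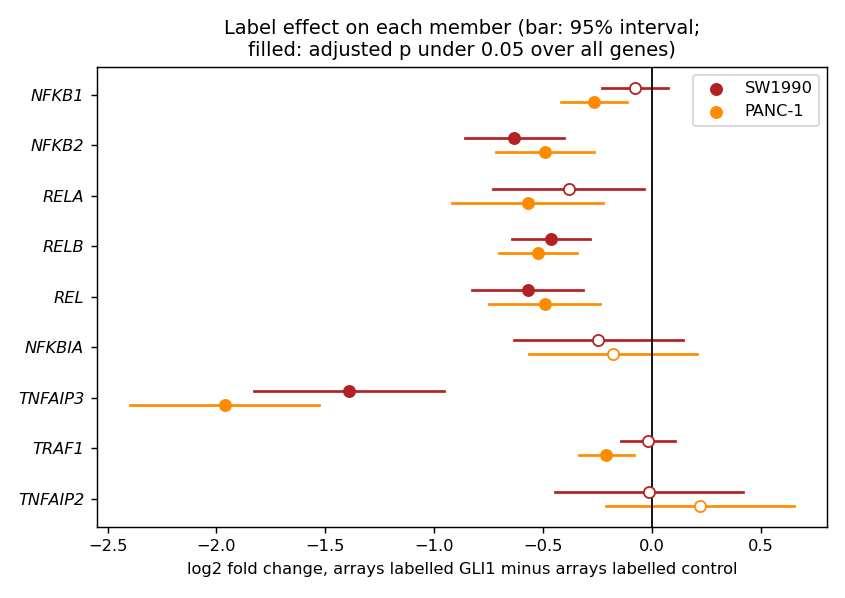
Log2 fold change of each gene (horizontal axis, arrays labelled GLI1 minus arrays labelled control) in SW1990 and PANC-1 with its 95% interval from limma. Filled points passed an adjusted p under 0.05, which 4 genes did in SW1990 and 7 in PANC-1, and TNFAIP3 lies furthest from 0 at -1.39 and -1.96.

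The arrays labelled GLI1 lay wholly below the control arrays for 6 of 9 genes in SW1990, where this held for 20.0% of all genes, and for 7 of 9 in PANC-1, where it held for 11.6%. For a single gene such a split gives p = 0.1 (two-sided exact permutation test), the smallest that 3 arrays against 3 allow. Single arrays of PANC-1 ran high or low across the list. LIP was the highest of the PANC-1 arrays labelled GLI1 for 8 of 9 genes, and S11 was the highest PANC-1 control array for 7 of 9 and the lowest for none. S8 was the highest control for NFKBIA and TNFAIP2 and the lowest for 4 genes, TNFAIP3, RELA, RELB and REL. Without S8, 8 genes were called in PANC-1, where 24.3% of all genes then were, and 5 in SW1990, where 25.0% were. Without LIP-1, LIP-2 or S11, RELB and TNFAIP3 were called in PANC-1, and without S10, NFKB2 and TRAF1 were called besides them. Of all 22411 genes, 769, 784, 932 and 728 were then called, in that order. Leaving out LIP left 5 calls, and leaving out the SW1990 control array a or b left 4 in PANC-1. Over all genes these refits gave 2005, 1633 and 1531 calls in PANC-1, in that order. TNFAIP3 kept its call in all 12 of these refits. The interferon-stimulated genes moved with the label too: 27 of 28 fell in SW1990 (median log2 fold change -3.50) and 9 of 28 in PANC-1 (median -1.21). Without S8, 28 of 28 fell in SW1990 and 12 of 28 in PANC-1, where the median was then -0.27. Their median per array lay between 6.31 and 6.58 in the SW1990 arrays labelled GLI1 and between 10.47 and 10.67 in the SW1990 control arrays, and between 6.05 and 6.51 in the PANC-1 arrays labelled GLI1 and between 6.52 and 9.31 in the PANC-1 control arrays. Their part in the results for the NF-κB genes was not tested.

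**Figure D3:**
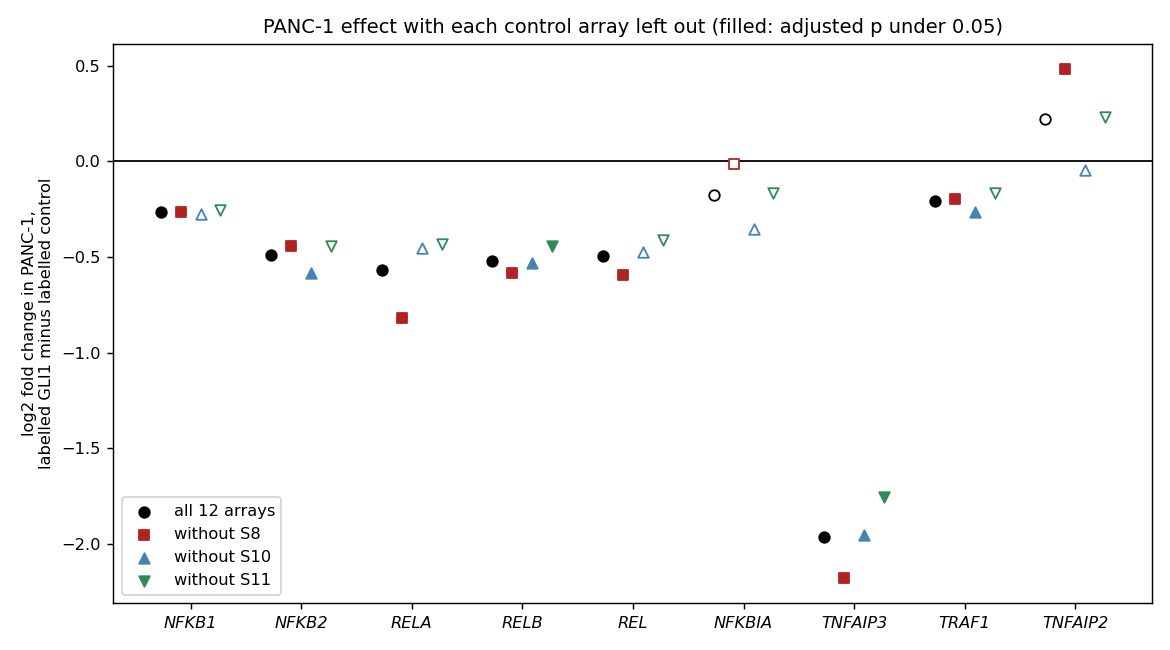
Log2 fold change in PANC-1 (vertical axis, arrays labelled GLI1 minus arrays labelled control) of each gene with all 12 arrays and with the control array S8, S10 or S11 left out. Filled symbols passed an adjusted p under 0.05 from limma, and TNFAIP3 and RELB are filled throughout while RELA reaches -0.82 only without S8.

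The label effect was then compared between the lines by subtracting the effect in SW1990 from that in PANC-1. None of the 9 genes was called, where 2.39% of all genes were, and 1 gene, TRAF1, had an unadjusted p under 0.05 from limma (difference -0.19, adjusted p = 0.263). How many of all genes reached that unadjusted p was not counted. For TNFAIP3 the difference was -0.57 with a 95% interval of -1.19 to 0.04 (limma adjusted p = 0.348), which leaves room for an effect in PANC-1 more than 1 log2 unit stronger than in SW1990. Without S8 the difference was called for 15.2% of all genes, among them RELA at -0.44 (limma adjusted p = 0.00303) and TNFAIP3 at -0.79 (limma adjusted p = 0.0429). With array weights it was called for NFKB1, RELA, TNFAIP3 and TRAF1, where 6039 of 22411 genes were called. For RELB (difference -0.06) and NFKB2 (difference 0.14) no setting gave a call.

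The lines themselves differed in several of these genes. Among control arrays 6 of 9 genes were called, all lower in SW1990 than in PANC-1, where 40.6% of all genes were called in either direction. Among the arrays labelled GLI1 5 of 9 were called, against 39.1% of all genes. Without S8, 7 of 9 were called among control arrays and 7 of 9 among the arrays labelled GLI1, against 43.2% and 44.0% of all genes. These counts are to be read against such high shares, and each line comparison uses the same arrays as the label comparisons. TNFAIP2 differed most: its mean was 7.38 ± 0.08 in SW1990 and 9.81 ± 0.07 in PANC-1 arrays labelled GLI1 (SD, n = 3 each), and 7.39 ± 0.13 in SW1990 and 9.59 ± 0.53 in PANC-1 control arrays (SD, n = 3 each). SW1990 was thus 5.38-fold lower under the GLI1 label (limma adjusted p = 1.7e-06) and 4.57-fold lower under the control label (limma adjusted p = 3.77e-06). TNFAIP3 was 2.48-fold lower in SW1990 than in PANC-1 under the GLI1 label (limma adjusted p = 0.000241) and 3.69-fold lower under the control label (limma adjusted p = 1.37e-05). NFKB2 (log2 difference -0.58 under the GLI1 label and -0.44 under the control label) and RELB (-0.34 under the GLI1 label and -0.40 under the control label) were also lower in SW1990 under both labels. NFKB1 was called higher in SW1990 under the GLI1 label (log2 difference 0.25, limma adjusted p = 0.011), and under the control label its log2 difference of 0.07 had separate groups and missed the threshold (limma adjusted p = 0.501), although the methods' t-test passed it. TRAF1 was called lower in SW1990 under the control label (log2 difference -0.21) and had a log2 difference of -0.02 under the GLI1 label. RELA was called lower under the control label with overlapping groups (log2 difference -0.43, limma adjusted p = 0.0492) and not under the GLI1 label (log2 difference -0.24, limma adjusted p = 0.271), where it was called without S8 (limma adjusted p = 0.00181). REL passed under neither label with S8 and under both without it, and NFKBIA passed under neither.

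NF-κB binds a short motif, the κB site, and several of its own genes are known to carry one near their start. RefSeq promoters (build GRCh38.p14), which run from 250 bases before to 50 after each start, were searched on both strands for the κB consensus of 10 bases. The table held promoters for 9 of the 10 listed genes, RELB not among them, and for 8 of the 9 measured genes. A match was found in 5 of these 8, NFKB1, NFKB2, REL, NFKBIA and TNFAIP3, and in none of the promoters of RELA, TRAF1 and TNFAIP2. Some genes have several starts and so more chances of a match. Counted by promoter, 7 of the 15 promoters of the listed genes, that of BIRC3 included, held a match, against 11.3% of 35116 promoters. The GLI motif GACCACCCA was in none of the 15 promoters of listed genes and in 0.236% of all promoters. A match is a description of letters and not of a bound site, and no match says only that these letters are not in this window. One stretch around a match is shown for each of the 5 measured genes, so that genes that fell in both lines and others can be set side by side, and those of NFKB2 and TNFAIP3 are shorter because they lie inside the annotated gene. They are given 5′ to 3′ on the gene's own strand, with bases matching the consensus in capitals, where overlapping matches run together.
NFKB1, chr4:102501290-102501339, plus strand: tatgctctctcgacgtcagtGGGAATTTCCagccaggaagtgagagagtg
NFKB2, second start, chr10:102394461-102394490, plus strand: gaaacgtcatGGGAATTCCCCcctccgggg
REL, chr2:60881507-60881557, plus strand: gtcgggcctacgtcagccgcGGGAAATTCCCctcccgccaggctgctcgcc
NFKBIA, chr14:35404801-35404850, minus strand: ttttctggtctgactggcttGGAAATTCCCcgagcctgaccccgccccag
TNFAIP3, chr6:137867188-137867217, plus strand: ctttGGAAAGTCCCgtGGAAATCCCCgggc
The match of NFKB1 began at position -49 from its first start, that of NFKBIA at -81, and the pair of TNFAIP3 at -67 and -55. For NFKB2 the overlapping pair shown began at -107 and -106 from the second start, and matches not shown began at -78 from that start and at -176 and -21 from the third start. NFKB2, REL and TNFAIP3, which fell in both lines, had a match, but so did NFKBIA, which passed the test in neither, and NFKB1, which passed it in PANC-1. RELA and TRAF1, which fell in PANC-1, had none, nor did TNFAIP2, which passed the test in neither line.

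The measured genes lie on different chromosomes except NFKBIA and TNFAIP2, which are both on chromosome 14. NFKB1 is at chr4:102501359-102617302, NFKB2 at chr10:102394110-102402529, RELA at chr11:65653601-65663857, RELB at chr19:45001464-45038192 and REL at chr2:60881574-60931612 of GRCh38.p14. NFKBIA is at chr14:35401513-35404749, TNFAIP3 at chr6:137866349-137883312, TRAF1 at chr9:120902393-120929171 and TNFAIP2 at chr14:103121469-103137439.

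After each line's mean was taken out, the genes were set against each other over the 12 arrays, which share the label split and the array S8, so that the correlations are descriptions. TNFAIP3 correlated with RELB at 0.97, with REL at 0.942, with NFKB2 at 0.906, with RELA at 0.888 and with NFKB1 at 0.829. With NFKBIA it was 0.477, and with TNFAIP2 it was -0.34. Pairs of subunits lay between 0.667 and 0.919. Without S8, over 11 arrays, TNFAIP3 correlated with RELA at 0.977 and with TNFAIP2 at -0.539, pairs of subunits lay between 0.668 and 0.949, and the members lay between 0.855 and 0.991 with the similar genes named next. Similar genes were sought outside the list, with some kinds of gene name skipped as listed below. Those most like TNFAIP3 were ELOVL7 at 0.991, which encodes a fatty acid elongase, ZFAND2A at 0.989, which encodes an arsenite-inducible zinc finger protein, and DENND4A at 0.987. RELB was closest to YTHDC1 at 0.971, which reads methylated adenosine in RNA, USPL1 at 0.969 and TET2 at 0.967. For NFKB2 they were SIX4 at 0.986, OGT at 0.983 and CREB3 at 0.975, and for RELA PPFIA1 at 0.989, MTSS2 at 0.988 and MEF2D at 0.987. REL was closest to NPIPA3, NPIPB4 and SMG1P5, at 0.991 to 0.986, but these belong to near-identical gene copies on which the probe sets are uncertain. NFKB1 was closest to SIM2 at 0.926, LIMA1 at 0.921 and BCL10 at 0.917, and BCL10 encodes an adaptor that leads to NF-κB activation in lymphocytes. The genes most like NFKBIA were OR4B1 at 0.933, the complement gene C3 at 0.926 and TNFAIP6 at 0.922. TRAF1 reached 0.887 at most, with ZNF134, followed by KCNMB3 and LUZP1, and TNFAIP2 reached 0.941 with TMEM123, followed by IGHV1-46 and STK26.

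The rest of the pathway was described by 6 further lists, with 83 measured genes, of which 23 fell and 1 rose in SW1990 and 12 fell and 1 rose in PANC-1. Over all genes 9.62% fell and 9.30% rose in SW1990, and 5.25% fell and 4.39% rose in PANC-1, so that counts of 1 of 10 or 2 of 20 genes below lie near the share over all genes. Without S8, 26 were lower and 1 higher in SW1990 and 15 were lower and 10 higher in PANC-1, to be read against the 25.0% and 24.3% of all genes called in either direction. With the PANC-1 arrays alone 1 gene fell and 0 rose by limma, where 0.384% of all genes were called. Of the other IκB proteins, 2 of 5 fell in each line. NFKBIZ, an atypical nuclear IκB, fell in SW1990 (log2 fold change -1.28, limma adjusted p = 0.000525) and had a log2 fold change of 0.16 in PANC-1, where it was called higher without S8 (0.39, limma adjusted p = 0.0288). NFKBIB, which encodes IκBβ, fell in both (-0.49 in SW1990 and -0.52 in PANC-1), and NFKBIE, which encodes IκBε, fell in PANC-1 (log2 fold change -0.65, limma adjusted p = 0.00552).

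Of the kinases and adaptors that lead to the kinase step, 6 of 18 measured genes fell in SW1990 and 4 in PANC-1, with medians of -0.16 and -0.08. TAB2 and TAB3, adaptors of the kinase TAK1, fell in both lines, TAB2 with log2 fold changes of -0.42 in SW1990 and -0.39 in PANC-1. RBCK1, a part of the linear ubiquitin ligase, fell in SW1990 (-0.79), as did MAP3K14 (-0.48), which encodes the kinase NIK of the noncanonical pathway. TRAF6 (-0.49) and TBK1 (-0.34) fell in PANC-1. Of the ubiquitin-editing genes that act beside TNFAIP3, 4 of 11 fell and 1 rose in SW1990, and 3 of 11 fell in PANC-1. CYLD, a deubiquitinase that restrains NF-κB, fell in both lines, with a log2 fold change of -0.61 in SW1990 (limma adjusted p = 0.000541) and -0.90 in PANC-1 (limma adjusted p = 0.000478), and in PANC-1 it was the only gene of the 83 called with those arrays alone (limma adjusted p = 0.0295). N4BP1 (-0.98 in SW1990 and -0.40 in PANC-1) fell in both lines. ITCH (-0.43) fell and OTULIN (0.26), which cuts linear ubiquitin chains, rose in SW1990, and OTUD7B (-0.51) fell in PANC-1.

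Of the receptors, 2 of 10 fell in SW1990, and 1 fell and 1 rose in PANC-1. TLR3, a sensor of double-stranded RNA, fell in SW1990 (-2.37, limma adjusted p = 3.67e-06), and TNFRSF12A fell in both lines (-0.52 in SW1990 and -0.53 in PANC-1). The TNF receptor gene TNFRSF1A rose in PANC-1 (log2 fold change 0.53, limma adjusted p = 0.0262). Among 20 other NF-κB targets, 4 fell in SW1990 and 2 in PANC-1, with medians of 0.01 and -0.11. They were IRF1 (-1.65), IL15RA (-0.44), SDC4 (-0.74) and TNFRSF9 (-0.47) in SW1990 and TNFRSF9 (-0.60) and GADD45B (-0.47) in PANC-1. GADD45B, a stress-response gene, lost its call without S8 (-0.41, limma adjusted p = 0.0511), and the other PANC-1 genes named from these lists kept theirs. Without S8, 24.3% of all genes were called in PANC-1. Other arrays left out took calls away. Of the 83 genes, 7 were lower without S10, 8 without S11, 5 without LIP-1 and 6 without LIP-2 in PANC-1, and 0 were higher. Of 22411 genes, 728, 932, 769 and 784 were then called. Neither TNFRSF12A nor TNFRSF1A kept its PANC-1 call in any of these refits. IRF1 and TLR3 are also known interferon-induced genes. Of 19 cytokines and chemokines, 5 fell in SW1990 and 0 passed in PANC-1 with limma, where 4 had an unadjusted p under 0.05. These 4 went both ways, CXCL2 at 0.28 and IL1A (-0.31), IL32 (-0.37) and LIF (-0.70) below 0. The share of all genes at that unadjusted threshold was not counted. In SW1990 CXCL8, the neutrophil chemokine interleukin-8, had the largest of the named changes at -2.45 (limma adjusted p = 0.00816), followed by IL1A (-0.74), CXCL2 (-0.62) and IL15 (-0.51). IL15 and IL1A had low values, with SW1990 means of 3.78 and 4.43 under the GLI1 label, against 4.29 and 5.16 under the control label. The medians of these lists, between -0.32 and 0.02, were all nearer 0 than those of the 9 genes, although no test compared them.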

How the data were processed

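The authors deposited background-corrected, normalized log2 values of 70523 probe sets on 12 arrays, made with tools that the sources used here do not name. The methods describe Agilent slides with Cyanine-3, whereas the labels give biotin and the probe set IDs belong to an Affymetrix Human Transcriptome Array. No array was left out, and the number of arrays and the spread between them limit precision, since arrays have no read depth.

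Here the values were quantile normalized, because array medians differed by 0.133, over the 0.1 set as the limit. Of the probe sets, 23781 had 1 symbol, 1543 several and 45199 none. Symbols were updated through RefSeq, by Entrez ID for 21497, symbol for 1974 and synonym for 306, and 4 were kept. The probe set of highest mean was used for the 528 genes with several.

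All 4 groups were fitted with limma 3.58.1 (lmFit, eBayes) in R 4.3.3 with 8 residual degrees of freedom, 5 contrasts and Benjamini-Hochberg adjustment over 22411 genes. The steps were tested on simulated data. The methods name Student's t-test for the paper as a whole, which was run as an alternative among 24 settings. Tables and plots used Python 3.11.15, pandas 2.3.3 and matplotlib 3.10.9. Named genes are all listed members, GLI1, and up to 4 called genes of smallest adjusted p per pathway list and line. The 3 genes outside the list most correlated with each member are named too, skipping clone, LOC, LINC, orf, MIR, SNOR and antisense (-AS) names. Correlations without S8 were added after seeing the data. The members and lists were chosen with earlier results of these data known.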

Additional observations from a re-analysis of the deposited data

Results flagged for a closer look

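The label effect differed between the lines, by the test of that difference (PANC-1 effect minus SW1990 effect, limma, adjusted over all genes), for GLI1 and for 5 genes of the pathway lists. None of the 9 measured NF-κB genes was among them. The values given for each are log2 fold changes of arrays labelled GLI1 relative to arrays labelled control. GLI1 had -3.57 in PANC-1 and -4.92 in SW1990, a difference of 1.35 (adjusted p = 0.00019). CXCL2 had 0.28 in PANC-1 and -0.62 in SW1990, a difference of 0.89 (adjusted p = 0.0234). NFKBIZ had 0.16 in PANC-1 and -1.28 in SW1990, a difference of 1.44 (adjusted p = 0.0135). IRF1 had -0.16 in PANC-1 and -1.65 in SW1990, a difference of 1.49 (adjusted p = 0.00138). TLR3 had -0.16 in PANC-1 and -2.37 in SW1990, a difference of 2.21 (adjusted p = 0.000263). Its means under the GLI1 and control labels were 3.30 and 3.46 in PANC-1 and 3.50 and 5.87 in SW1990. The PANC-1 means lay near those of the leukocyte marker PTPRC there, 3.43 and 3.46, so TLR3 had little room to fall in PANC-1. N4BP1 had -0.40 in PANC-1 and -0.98 in SW1990, a difference of 0.58 (adjusted p = 0.0269). Without S8 the difference was called for each of these genes, at 1.33 for GLI1, 0.96 for CXCL2, 1.68 for NFKBIZ, 1.66 for IRF1, 2.36 for TLR3 and 0.62 for N4BP1.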

How the results depend on the processing

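No paired analysis was possible because the arrays labelled GLI1 and control of a line share no replicate names. Of the values recomputed with 1 array left out, 473 of 540 kept their direction and side of the threshold, 45 lost a call, 8 gained one and 14 turned in sign. Under the other settings 437 of 513 kept both, 47 lost a call, 21 gained one and 8 turned. Both counts include values whose log2 fold change is fixed by design, where only the side of the threshold was free to change. These are values without an array outside the groups compared, or with another threshold or probe set choice. For NFKB1 in PANC-1 the log2 fold change was -0.2646 without each SW1990 array in turn. Neither count therefore measures how stable the direction was. TNFAIP3 kept its call in SW1990 under all 24 other settings and in PANC-1 under all but the Benjamini-Hochberg adjusted t-test of the methods.

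With a 2-fold limit added, 1 gene was called in SW1990 (TNFAIP3), 1 in PANC-1 (TNFAIP3), 2 between lines in control arrays and 2 in arrays labelled GLI1 (TNFAIP2 and TNFAIP3). In PANC-1 the 7 calls became 1 with those arrays alone, 2 at a threshold of 0.01 and 0 by the methods' t-test with Benjamini-Hochberg adjustment, against 6 unadjusted, and leaving out 1 array gave 2 to 8. For the difference between lines, array weights gave 4 calls and leaving out 1 array 0 to 2. The cause was not tested.

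Each log2 value that turned in sign was uncalled on both sides of the turn. As deposited, TRAF1 had 0.0025 and TNFAIP2 0.016 in SW1990, REL had -0.024 in the difference between lines, and TRAF1 had 0.0436 between lines in arrays labelled GLI1. With array weights REL had -0.10 and NFKBIA -0.0899 in the difference, and NFKBIA 0.067 between lines in arrays labelled GLI1. Median centring gave NFKB1 -0.0256 between lines in control arrays. Leaving out 1 array gave, in SW1990, -0.0281 to 0.0006 for TRAF1 and -0.0823 to 0.039 for TNFAIP2, and in PANC-1 -0.0461 to 0.48 for TNFAIP2. In the difference between lines it gave -0.13 to 0.0192 for RELB, -0.0605 to 0.16 for REL, -0.12 to 0.23 for NFKBIA and -0.0337 to 0.49 for TNFAIP2. Between lines NFKBIA had -0.23 to 0.12 in control arrays and -0.22 to 0.0699 in arrays labelled GLI1.

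Over all genes, the 4241 calls in SW1990 became 7699 with array weights, 7119 by the unadjusted t-test, 2269 at 0.01, 224 with the 2-fold limit and 2793 or 2800 without control array a or b. The 2160 calls in PANC-1 became 9218 with array weights, 86 with those arrays alone, 3293 by the t-test and 0 after adjusting it, 514 at 0.01, 113 with the 2-fold limit, 728 without S10, 769 without LIP-1, 784 without LIP-2, 932 without S11 and 5443 without S8. The 536 calls of the difference became 6039 with array weights, 267 with median centring, 109 at 0.01, 105 with the 2-fold limit, 3416 without S8 and 228 to 380 without any other single array. With the 2-fold limit, the 9102 calls between lines in control arrays became 1836, and the 8768 in arrays labelled GLI1 became 1693.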
